A study of Rattus norvegicus with 415 samples.

Results

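The 7 genes described here are core genes of cell division: Mki67 (ENSRNOG00000028137), Top2a (ENSRNOG00000053047), Cdk1 (ENSRNOG00000000632), Ccnb1 (ENSRNOG00000058539), Ccna2 (ENSRNOG00000015423), Plk1 (ENSRNOG00000018815) and Pcna (ENSRNOG00000021264). They are a list of genes named for their role in the cell cycle, and all 7 were found among the 18358 genes of the table. All 7 were also among the 16131 genes with an FPKM, the reads of a gene scaled by its length and by the sample's depth, above 1 in at least 20% of samples. The samples were all the adipose tissue libraries of the series, from outbred rats (Rattus norvegicus) aged 17 weeks, in 1 group for which the labels name no treatment and no control. Outbred rats differ from each other in their genomes, and the series used them to map metabolic traits and gene expression. The labels give no sex, fat depot or diet for these animals.

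Each sample title holds a number and a suffix of unstated meaning, and 44.8% of samples share their number with another sample. Gaps above 500 in the numbers set 3 blocks with 9.40%, 55.9% and 34.7% of samples, block 1 being the smallest with 39. The blocks, which the study did not define, were treated as possible batches. Reads in genes ranged from 2139163 to 6248214 per sample around a median of 4602134, and 12 samples had fewer than 3500000. Nothing in the labels states that each sample came from its own animal, so the p-values measure the spread between these samples.

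Dividing cells copy their DNA, condense and untangle the copies, and then separate them in mitosis, and each step needs proteins that resting cells make little of. Pcna encodes the sliding clamp that holds DNA polymerases on the template, and it also serves in DNA repair outside of division. Top2a encodes the topoisomerase that untangles DNA before chromosomes part. Ccna2 and Ccnb1 encode cyclins, the regulatory partners that switch on kinases such as the one encoded by Cdk1, which drives cells into mitosis. Plk1 encodes a kinase of the mitotic spindle, and Mki67 encodes the Ki-67 protein that coats mitotic chromosomes and is widely used to count cycling cells. In adipose tissue mature fat cells rarely divide, while progenitors, vessel cells and immune cells can.

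Many genes of late cell division carry CCAAT boxes, known as binding sites of NF-Y, and the element called CHR, searched here as TTTGAA, known as a binding site of MuvB complexes. RefSeq promoter windows, from 250 bases before to 50 bases after a transcript start, were at hand for 6 of the 7 genes (build GRCr8). In 4 of them that start is where the RefSeq gene table begins the gene. For Cdk1 the table begins the gene 41 bases earlier, and for Mki67 it begins far enough upstream to hold the whole window. Both strands were searched for the CCAAT box, for the CHR and for 4 E2F core words, namely TTCCCGC, then TTGGCGC, then TTCGCGC and lastly TTGCCGC. All 6 windows held the CCAAT word, which was in 37.5% of all 33469 rat windows. There were 4 in Mki67, 4 in Top2a, 3 in Cdk1, 2 in Ccnb1, 1 in Plk1 and 1 in Pcna, and 11.2% of all windows held at least 2. The CHR word was in 4 of the 6 windows (Mki67, Top2a, Cdk1 and Plk1) and in 18.3% of all windows. An E2F core word was in 2 of them (Mki67 and Cdk1) and in 9.52% of all windows. With -1 as the last base before the window's start, the CHR word or its reverse complement began at -22 in Top2a and at -72 and -16 in Cdk1, the latter inside the listed gene. In Mki67 it began at -117 and -99, both inside the listed gene, and the later match overlaps a CCAAT word on the other strand. In Plk1 it began at 7, also inside the gene, and the CCAAT word at -38. Such a match is a description of letters and not a site shown to be bound. The bases of the window before the listed gene are printed for 3 genes that varied together and for Pcna, which varied apart from them, with the matched words in capitals.
Top2a (GRCr8 chr10:84473094-84473343, strand -): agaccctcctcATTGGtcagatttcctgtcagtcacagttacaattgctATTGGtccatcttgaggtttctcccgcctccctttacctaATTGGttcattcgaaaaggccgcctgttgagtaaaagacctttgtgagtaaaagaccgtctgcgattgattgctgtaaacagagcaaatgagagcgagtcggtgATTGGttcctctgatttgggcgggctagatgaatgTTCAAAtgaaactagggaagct
Cdk1 (GRCr8 chr20:19265043-19265251, strand +): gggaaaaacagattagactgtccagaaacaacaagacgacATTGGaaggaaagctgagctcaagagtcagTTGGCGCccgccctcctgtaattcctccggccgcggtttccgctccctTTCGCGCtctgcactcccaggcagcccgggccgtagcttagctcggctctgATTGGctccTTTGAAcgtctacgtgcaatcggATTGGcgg
Ccnb1 (GRCr8 chr2:33655226-33655475, strand -): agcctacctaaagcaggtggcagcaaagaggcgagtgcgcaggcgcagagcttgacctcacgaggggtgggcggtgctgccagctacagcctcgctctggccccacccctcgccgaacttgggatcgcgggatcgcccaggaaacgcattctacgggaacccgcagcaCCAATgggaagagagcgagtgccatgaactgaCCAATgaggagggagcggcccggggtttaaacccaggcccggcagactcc
Pcna (GRCr8 chr3:139955821-139956070, strand -): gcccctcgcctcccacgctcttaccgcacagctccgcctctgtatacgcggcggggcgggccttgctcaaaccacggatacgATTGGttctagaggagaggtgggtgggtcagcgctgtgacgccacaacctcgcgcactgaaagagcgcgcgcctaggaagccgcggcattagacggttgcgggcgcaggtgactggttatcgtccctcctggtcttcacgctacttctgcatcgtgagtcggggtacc
Both the CCAAT and the CHR word were thus in the windows of Mki67, Top2a, Cdk1 and Plk1. The Ccnb1 window held 2 CCAAT words, at -82 and -50, and the Pcna window held 1, at -168, and no match to the other words was found in either. Only the exact words given were searched, so this does not show that Ccnb1 or Pcna lack a CHR or an E2F site.

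Transcripts of all 7 genes were detected in every sample, but at very different levels. Pcna was the most abundant, with a lowest, median and highest value of 35.6, 44.3 and 71.1 FPKM. Its mean level, 45.1 ± 5.05 FPKM (SD over all samples), lay above 86.7% of the genes in the table. The other members were low-abundance transcripts, with mean levels above 20.4% (Plk1) to 34% (Mki67) of genes. In bulk tissue, fewer cells of a type and less RNA per cell cannot be told apart.

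Mki67 ranged from 1.99 over a median of 4.44 to 17.2 FPKM, on a median of 200 reads per sample. Top2a ranged from 0.868 over a median of 4.0 to 22 FPKM, on 19 to 600 reads. For both genes most samples lay well below the highest values, with a thin tail of high samples. The middle 80% of samples fell between 3.21 and 6.47 FPKM for Mki67 and between 2.54 and 6.79 FPKM for Top2a. The kinase gene Cdk1 ranged from 1.21 over a median of 4.29 to 18.8 FPKM, on 27 reads. Its cyclin partner Ccnb1 ranged from 0.820 over 2.77 to 12 FPKM, on 20 reads, and Ccna2 from 1.67 over 3.35 to 10.4 FPKM, on 36 reads. The same shape was seen, with the highest sample 3.11 to 5.51 times the median in the 6 genes other than Pcna. Plk1 was the lowest, from 0.380 over 1.62 to 7.34 FPKM, on a median of 17 reads and in one sample on 3, and it was above 1 FPKM in 87.7% of samples. The highest Pcna sample was only 1.60 times the Pcna median.

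**Figure D1:**
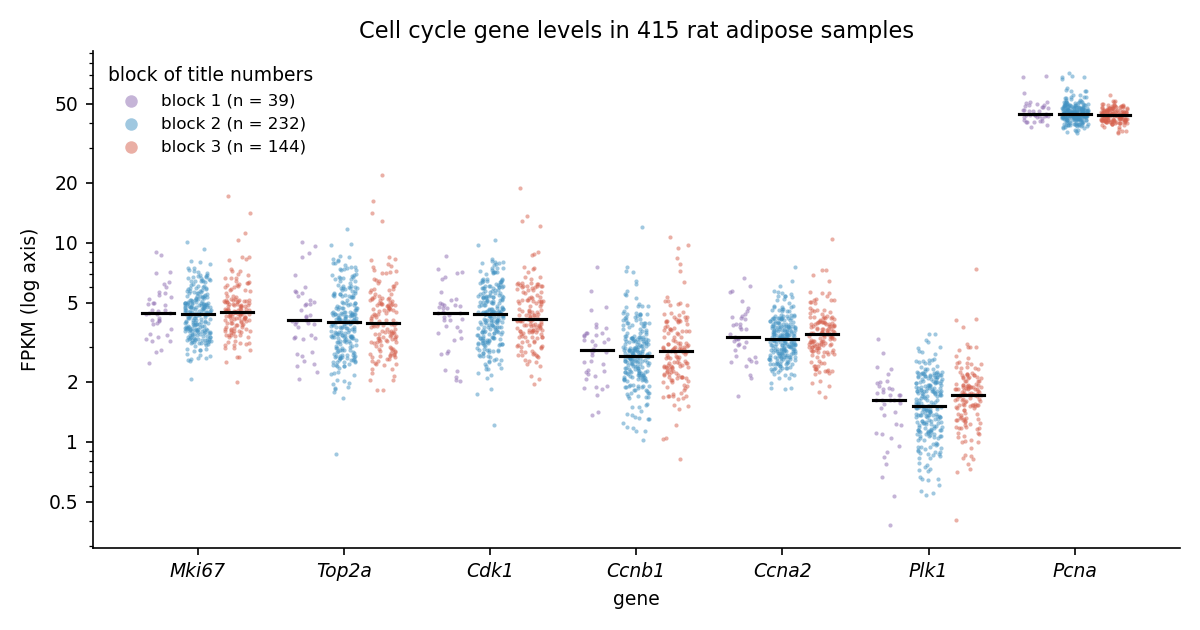
FPKM of the 7 genes (log axis) in every sample, coloured by block of title numbers, with a black line at each block's median. Pcna lies apart at a median of 44.3 FPKM, and the other genes have medians between 1.62 and 4.44 FPKM with a tail of high samples.

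The order of mean levels per length was Pcna, Mki67 (4.69 ± 1.56 FPKM), Cdk1 (4.59 ± 1.80), Top2a (4.41 ± 2.06), Ccna2 (3.5 ± 1.02), Ccnb1 (3.01 ± 1.36) and Plk1 (1.66 ± 0.652), each with its SD over all samples. Within samples, Pcna exceeded Mki67 in 100% of samples, by 3.05 ± 0.35 on the log2(FPKM + 1) scale (mean and SD of the within-sample difference). Mki67 and Cdk1 were close, with a mean difference of 0.04 (SE 0.01) that was small beside its SD of 0.27 over single samples, and Mki67 was higher in 56.1% of samples. Cdk1 and Top2a likewise differed by 0.06 (SE 0.01, SD 0.28), and Cdk1 was higher in 59.5% of samples. Top2a exceeded Ccna2 by 0.22 ± 0.33 and Ccna2 exceeded Ccnb1 by 0.20 ± 0.35, both means within 1 SD of single samples. Ccnb1 exceeded Plk1 by 0.57 ± 0.36 and in 94.7% of samples. The lower 6 genes therefore formed a graded group whose neighbours mostly overlapped.

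Top2a was the most variable member on the log2(FPKM + 1) scale. Its SD over samples was 0.46, larger than in 80.1% of the 16131 genes, and the median SD of those genes was 0.24. Ccnb1 (0.42), Cdk1 (0.41), Mki67 (0.34), Plk1 (0.33) and Ccna2 (0.30) also lay above that median. Pcna had an SD of 0.15, larger than in 20% of genes. On the FPKM scale the coefficient of variation ran from 29.1% for Ccna2 to 46.7% for Top2a, against 11.2% for Pcna and a median of 18.2% over the 16131 genes.

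Counting error took very different shares of that variance. Estimated from the recovered reads, counting variance was 5.96% of the variance of Mki67 and 6.17% of that of Top2a, both of them long transcripts (9880 and 5589 bp) with many reads. It was 29.4% for Cdk1, 32.1% for Ccnb1, 37.9% for Ccna2, 39% for Pcna and 44.6% for Plk1. The median over the 16131 genes was 28.9%. As an SD on the log2(FPKM + 1) scale, counting error was 0.08 for Mki67, 0.09 for Pcna and 0.11 for Top2a, and 0.19 for Ccna2, 0.22 for Plk1, 0.22 for Cdk1 and 0.24 for Ccnb1. Mki67 and Pcna were thus measured with the smallest counting error of the 7, but in Pcna it was a larger share of a small variance.

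All the genes except Pcna rose and fell together across samples. The closest pair was Mki67 and Top2a (Pearson's r = 0.888, Spearman's rho = 0.865). Top2a and Cdk1 followed (r = 0.801, rho = 0.783), then Mki67 and Cdk1 (r = 0.754, rho = 0.727) and Top2a and Ccnb1 (r = 0.742, rho = 0.684). The cyclin and kinase of the mitotic complex, Ccnb1 and Cdk1, had r = 0.658 and rho = 0.624. The lowest of the 15 pairs without Pcna was Ccna2 with Plk1 (r = 0.444, rho = 0.346). Each of these 15 pairs had a two-sided permutation p of 1e-05 for r and for rho, the smallest the permutations can give. Adjusted by Benjamini-Hochberg over the family of 21 pairs, these were 1.4e-05. Over the 15 pairs the median r was 0.658.

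The co-variation of these 6 genes was seen within each block. The 15 values of r ran from 0.430 to 0.941 in block 1, from 0.307 to 0.867 in block 2 and from 0.512 to 0.905 in block 3, and all 15 passed an adjusted p of 0.05 in each block. Without the 2 samples farthest from the median of the gene on the x axis, r ran from 0.399 to 0.877. With 1 sample per title number it ran from 0.451 to 0.889, and after removal of log2 reads per sample from 0.430 to 0.891. Removal of the first 5 principal components of all genes left r between 0.348 and 0.847. A single component held 71% of the variance of the 6 genes scaled to equal variance, and 61.4% with Pcna included.

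Dividing r by the geometric mean of the shares of both genes' variance that are not counting error gave 0.984 for Top2a and Cdk1, 0.946 for Mki67 and Top2a, 0.951 for Cdk1 and Ccnb1 and 0.714 for Top2a and Plk1. The median of the 15 pairs was then 0.902, against 0.658 as measured. This correction was chosen after the values were seen and carries no test.

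Pcna moved little with the others. Its r was 0.250 with Top2a (rho = 0.196), 0.231 with Ccnb1 (rho = 0.208), 0.210 with Cdk1 (rho = 0.186), 0.142 with Mki67 (rho = 0.108) and 0.113 with Ccna2 (rho = 0.0665). With Plk1 it was -0.130 (rho = -0.108). The 6 pairs passed the threshold for r (two-sided permutation test, adjusted p from 2.47e-05 for Top2a to 0.0207 for Ccna2), but for rho Ccna2 did not (adjusted p = 0.175). None of the 6 values reached the lowest value among the other 15 pairs. Within block 1, r ran from -0.390 (Plk1) to 0.0681 and 1 of the 6 passed. In block 2 it ran from -0.130 to 0.301 and all 6 passed, and in block 3 from 0.0568 to 0.288 and 4 passed. By rho, 0 of the 6 passed in block 1, 5 in block 2 and 2 in block 3. Without the 12 samples under 3500000 reads, r was 0.0207 for Plk1, 0.0946 for Ccna2, 0.164 for Mki67, 0.189 for Cdk1, 0.240 for Top2a and 0.299 for Ccnb1, and 4 of the 6 passed. Without the 2 samples farthest from the median of the other gene, r ran from -0.158 to 0.241 and 5 passed. The 6 values were higher after log2 reads were removed, from 0.0196 (Plk1) to 0.353 (Ccnb1), and after quantile normalization, from 0.0864 (Plk1) to 0.385 (Ccnb1), and in both settings 5 passed. After removal of the first 5 principal components they ran only from -0.0582 (Ccna2) to 0.106 (Ccnb1). There 1 passed by r and 0 by rho, and r was 0.00391 for Top2a and 0.00560 for Cdk1.

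**Figure D2:**
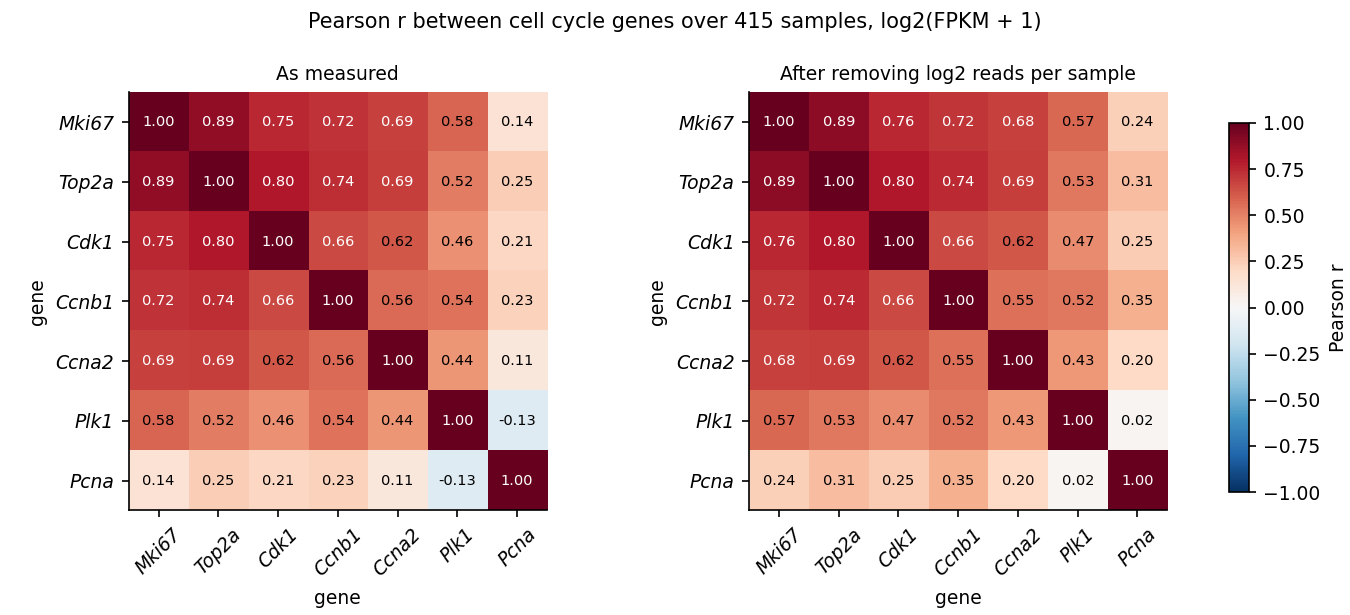
Pearson r between each pair of the 7 genes over all samples on the log2(FPKM + 1) scale, as measured and after log2 reads per sample were removed. The 15 pairs without Pcna lie between 0.444 and 0.888 as measured, and the 6 with Pcna between -0.130 and 0.250.

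**Figure D3:**
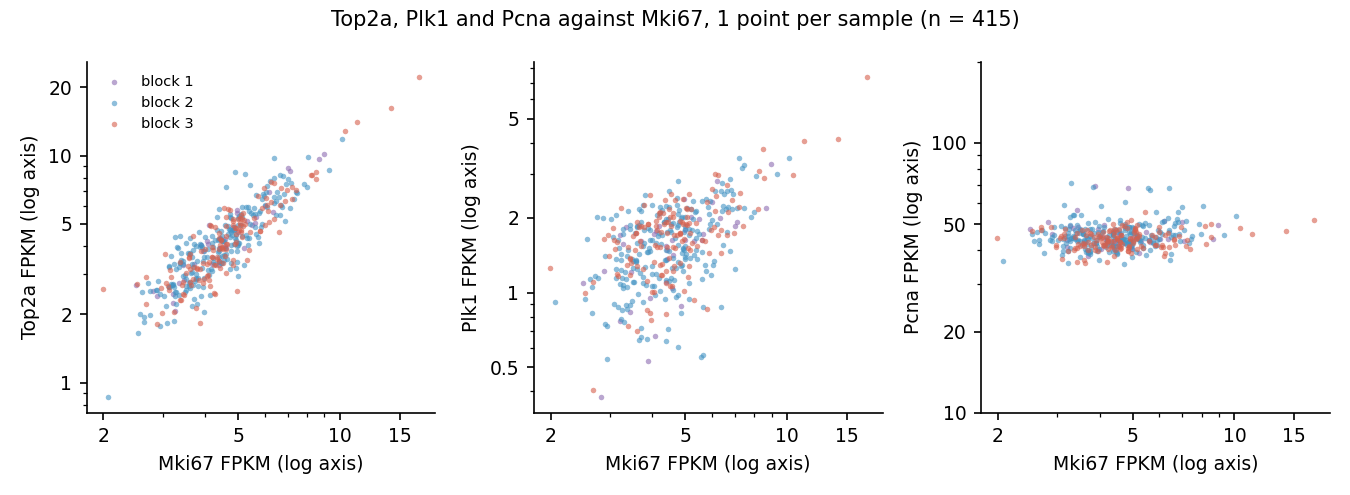
Top2a, Plk1 and Pcna against Mki67 in FPKM (log axes), 1 point per sample, coloured by block. Top2a follows Mki67 tightly (r = 0.888), Plk1 more loosely (r = 0.581), and Pcna lies in a flat band (r = 0.142).

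In 3 samples all 6 genes were among their 5 highest values. The sample numbered 64023 with suffix 4 was the highest for Mki67 (17.2 FPKM), Top2a (22), Cdk1 (18.8), Ccna2 (10.4) and Plk1 (7.34) and ranked 2 for Ccnb1 (10.7). The sample numbered 64024 with suffix 3 ranked 2 for Mki67 (14.2 FPKM), Top2a (16.2), Cdk1 (13.6) and Plk1 (4.16) and 3 for Ccnb1 and Ccna2. The highest Ccnb1 value, 12 FPKM, stood in the sample numbered 62562 with suffix 6. In all, the 5 highest values of each of the 6 genes, 30 values, fell in only 7 samples. The 5 lowest values of each fell in 24 samples, a larger number of samples than at the high end.

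None of the 7 was among the 5 highest for Pcna. In the sample numbered 64023, Pcna was 51.9 FPKM, above 94% of samples. In the sample numbered 64024 it was 47 FPKM, above 73.7% of samples. Over the 7 samples Pcna ran from 45.7 to 53.6 FPKM, each above the Pcna median of 44.3 but well below its highest value. The 5 highest Pcna values all came from the 12 samples with the fewest reads. None of the 7 was among those 12, since they had 4815532 to 5375219 reads. Outside those 12 samples the highest Pcna value was 58.6 FPKM.

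Of these 7 samples, 4 shared their title number with another sample. The sample numbered 62562 with suffix 6 had 10.1 FPKM of Mki67 and its partner 3.70, and the sample numbered 63944 with suffix 5 had 11.2 FPKM and its partner 4.50. The sample numbered 64024 with suffix 3 had 14.2 FPKM and its partner 5.10, and the one numbered 64113 with suffix 3 had 10.4 FPKM and its partner 4.34. The Mki67 level of the 4 partners was above 26.7% to 71.6% of samples, so none was among the high ones. Top2a in the partners was 2.34 to 4.60 FPKM, against 11.8 to 16.2 FPKM in the high samples. The high samples were picked on the values of these same genes, so lower values in the partners follow in part from that choice.

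Seen against the whole transcriptome, the genes most like each of the 6 included the other members. Among the 16130 other genes, Top2a had the highest r with Mki67, with Cdk1 and with Ccnb1, and Mki67 ranked 2 for Top2a, Ccnb1 and Plk1. The highest r with Top2a (0.90) and with Ccna2 (0.702) was that of ENSRNOG00000003388, and with Plk1 (0.582) that of ENSRNOG00000011777. For each of the 6, the other 5 were all within the top 1% of genes. The median r over all other genes was between -0.01 and 0.02, and the top 1% of genes began at r between 0.402 and 0.519. For Pcna none of the 6 was in the top 1%, and the closest of them, Top2a, ranked 3459. The highest r with Pcna was 0.744, that of ENSRNOG00000010147. Pcna also had far more close companions elsewhere, with r above 0.5 for 6.52% of genes and below -0.5 for 4.07%, against at most 1.31% and 0.0124% for the 6 others. Correlations of this kind rest on shared libraries and shared scaling, and are given without a test.

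By mean r with the 7 members, the most similar of the 16124 remaining genes were ENSRNOG00000003388 (mean r = 0.665) and ENSRNOG00000056069 (0.655). The first of them had r = 0.90 with Top2a and 0.874 with Mki67, but 0.204 with Pcna, at 1.67 ± 0.777 FPKM (SD over all samples). The genes with the lowest mean r were ENSRNOG00000009066 (-0.427) and ENSRNOG00000061768 (-0.385), both abundant at 52.1 ± 4.90 and 78.6 ± 9.81 FPKM. A mean r above 0.4 was found for 1.20% of genes and below -0.3 for 0.608%. The files do not pair these identifiers with names.

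Pcna and Plk1 varied with sequencing depth, in opposite directions. On the log2 scale, Pcna fell with reads per sample (r = -0.482, rho = -0.261) and Plk1 rose (r = 0.303, rho = 0.250), each with a two-sided permutation p of 1e-05 and an adjusted p over the 7 genes of 3.5e-05. Mki67 (r = 0.130, rho = 0.162), Ccnb1 (r = 0.156, rho = 0.154) and Ccna2 (r = 0.123, rho = 0.161) rose weakly, with adjusted permutation p-values for r of 0.0144, 0.00392 and 0.0168. No relation was detected for Top2a (r = 0.0477, adjusted p = 0.385) or Cdk1 (r = 0.0205, adjusted p = 0.675) in the same permutation test. With the 2 samples of most extreme depth left out, r was -0.439 for Pcna and 0.294 for Plk1.

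The 12 shallow samples held the highest Pcna values. In those samples, with fewer than 3500000 reads, Pcna ran from 49.3 over a median of 67.4 to 71.1 FPKM, while in all others it ran from 35.6 over 44.3 to 58.6 FPKM. The 5 highest Pcna samples were all among these 12. Plk1 was low in them, from 0.531 over 0.881 to 1.66 FPKM, against a median of 1.63 in all others. The remaining members had higher medians in the shallow samples than in all others. These were 5.09 against 3.96 FPKM for Top2a, 5.19 against 4.28 for Cdk1 and 4.81 against 4.43 for Mki67. For Ccna2 they were 3.73 against 3.32 FPKM and for Ccnb1 2.80 against 2.76. Without these 12 samples r was -0.193 for Pcna, 0.203 for Plk1, 0.203 for Mki67 and 0.158 for Top2a. By r all 7 genes then passed the adjusted threshold, with adjusted p from 7e-05 to 0.019 in the permutation test. By rho all passed except Cdk1 (rho = 0.0894, adjusted permutation p = 0.0729).

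Within blocks, the fall of Pcna with depth was found in block 1 (r = -0.795, rho = -0.533) and block 2 (r = -0.526, rho = -0.288), but not detected in block 3 (r = -0.0924, rho = -0.114, permutation p = 0.270). Plk1 rose in block 1 (r = 0.490, rho = 0.324) and block 2 (r = 0.306, rho = 0.270), though in block 1 its rho did not pass (adjusted permutation p = 0.162). In block 3 its adjusted permutation p for r was 0.0751 (r = 0.169, rho = 0.164). Of the weaker relations, Mki67 and Ccna2 passed in block 3 alone (r = 0.225 and 0.312). Ccnb1 passed in no block by r, but in block 2 by rho (rho = 0.159, adjusted permutation p = 0.0357). As a slope, log2 reads of Pcna grew by 0.67 for each unit of the log2 scaling factor and those of Plk1 by 1.76, where a slope of 1 is growth in proportion. Pcna had 0.207 reads per bp of gene and Plk1 0.00776, the highest and lowest of the 7.

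**Figure D4:**
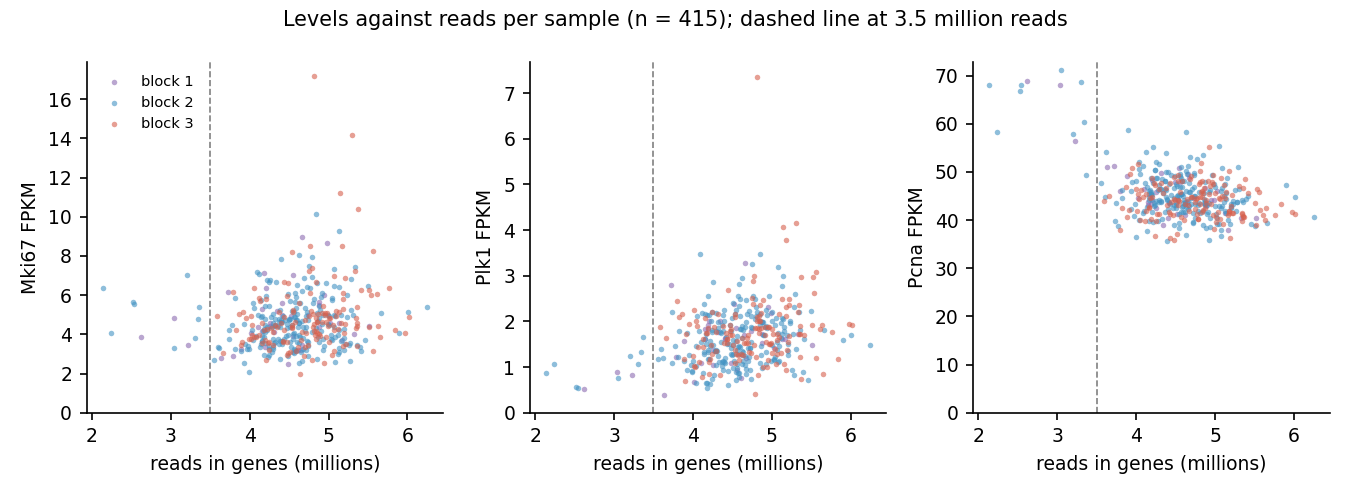
FPKM of Mki67, Plk1 and Pcna against reads in genes, 1 point per sample, coloured by block, with a dashed line at 3500000 reads. The 12 samples to the left of the line hold Pcna values from 49.3 to 71.1 FPKM and Plk1 values from 0.531 to 1.66 FPKM.

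Along the whole range of title numbers, Pcna fell and Plk1 rose, and no change was detected in the other members. Over all samples limma on log2(FPKM + 1) called 2 of 7 members (Benjamini-Hochberg adjusted p under 0.05 over 16131 genes), where 61.3% of all genes were called. Pcna fell by 0.12 from the lowest to the highest number (SE 0.02, limma adjusted p = 7.28e-06) and Plk1 rose by 0.17 (SE 0.05, limma adjusted p = 0.00366). The median absolute change over all genes tested was 0.126, so changes of this size were common and not particular to these members. The 5 other members had changes from -0.11 for Top2a to -0.01 for Ccnb1, with limma adjusted p from 0.218 to 0.954. With log2 reads as a covariate Plk1 had a change of 0.08 and was not called (limma adjusted p = 0.194), Pcna fell by 0.05 (adjusted p = 0.0403), and 51% of all genes were called. Pcna alone was also called after quantile normalization (59.8% of genes called) and without the 12 shallow samples (50.9%), where it fell by 0.05 (adjusted p = 0.0441).

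Inside block 2, which holds 55.9% of samples, 3 genes of the co-varying group fell, along with Pcna. From the lowest to the highest number of the block Top2a fell by 0.33 (SE 0.10, limma adjusted p = 0.00202), Mki67 fell by 0.23 (SE 0.07, adjusted p = 0.00377) and Ccna2 fell by 0.21 (SE 0.06, adjusted p = 0.00229). Cdk1 (-0.14, SE 0.09) and Ccnb1 (-0.12, SE 0.09) did not pass (limma adjusted p = 0.164 and 0.269). With Plk1 up by 0.19 and Pcna down, 5 of 7 members were called in that block, where 56.6% of all genes were called. Downward calls were 4 of the 7 members and 28.1% of all genes. The falls of Top2a, Mki67 and Ccna2 were also called in block 2 without its shallow samples (0.0259, 0.0132 and 0.0288 as limma adjusted p), where 42.1% of all genes were called, and with log2 reads as a covariate, where 46.6% were. Plk1 and Pcna were called in neither of these fits, so 3 of 7 members were called in each, near the share of all genes. The share of downward calls over all genes was not computed for these fits.

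In block 1 and block 3, 0 members were called by limma, where 0.00% and 6.53% of all genes were called. At an unadjusted p under 0.05, Pcna in block 1 and Plk1 in block 3 passed. The change of Plk1 across block 3 was -0.22 (SE 0.09, limma p = 0.0186, adjusted p = 0.132), opposite in sign to its rise over all samples and in block 2, and that of Pcna across block 1 was -0.22 (SE 0.09, limma p = 0.0172, adjusted p = 0.525). Whether the slopes differ between blocks was not tested.

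**Figure D5:**
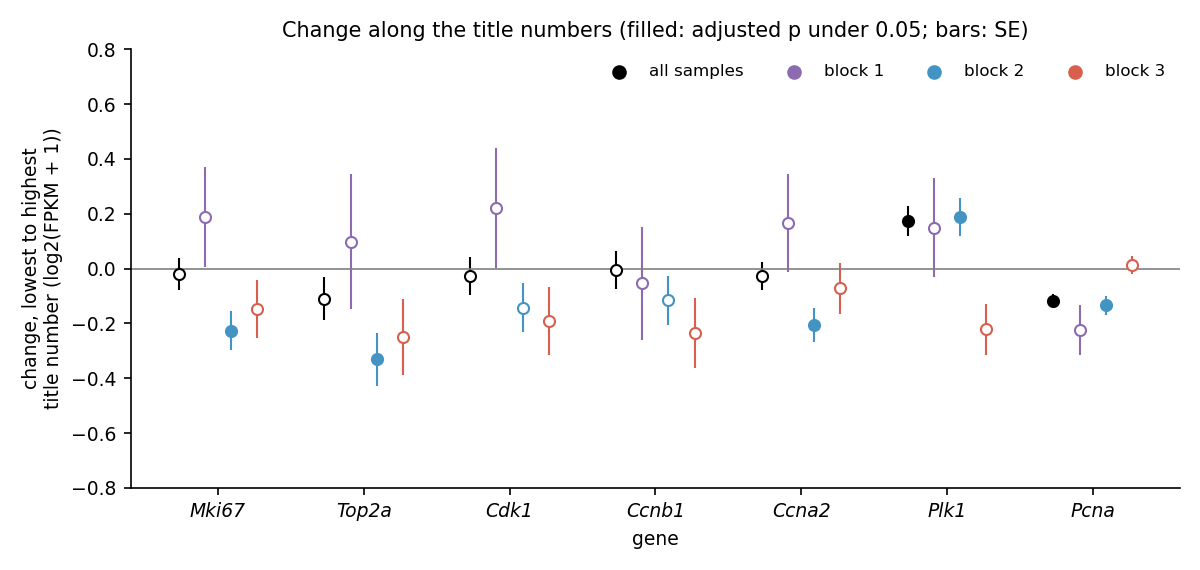
Change of log2(FPKM + 1) from the lowest to the highest title number for each gene, over all samples and within each block, with SE bars and filled points where the limma adjusted p was under 0.05. Top2a, Mki67 and Ccna2 are filled below 0 in block 2 only among the 4 fits drawn, and Pcna and Plk1 are filled in block 2 and over all samples.

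Between the blocks as groups, limma's F test called 2 of 7 members, where 53% of all genes were called. From block 1 to block 3 the means of Plk1 were 1.57 ± 0.596, 1.59 ± 0.573 and 1.79 ± 0.762 FPKM (SD; limma adjusted p = 0.0264). Those of Pcna were 46.4 ± 6.48, 45.6 ± 5.48 and 43.9 ± 3.47 FPKM (adjusted p = 0.00772). These differences between the 3 blocks were smaller than the SD within any of them. Cut at gaps above 250, the numbers gave 7 blocks, and the same 2 members were called (limma adjusted p = 8.8e-22 for Pcna and 0.0163 for Plk1, 73% of genes called). Among these blocks Pcna was highest in one of 10 samples, at 60.3 ± 9.84 FPKM, against 43.9 ± 3.47 FPKM in the lowest block. The block of 10 also had the lowest Plk1 mean, 1.18 ± 0.626 FPKM, and 7 of its 10 samples were among the 12 shallow ones. The part of depth in the differences among 7 blocks was not tested. Between the 3 blocks, with log2 reads as a covariate neither was called (limma adjusted p = 0.260 and 0.358, 41.7% of genes called), nor after quantile normalization (51.9% of genes called). With voom on the recovered reads only Pcna was (adjusted p = 0.0216, 51.1% of genes called). The block medians of Mki67 were 4.43, 4.39 and 4.50 FPKM, and no difference between blocks was detected for it or for the other 4 genes (limma adjusted p from 0.258 to 0.822).

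Samples that share a title number resembled each other in only some members. Among the samples with a shared number, limma's F test called Mki67 (adjusted p = 0.0347), Plk1 (0.00904) and Pcna (0.00311), 3 of 7 members, where 57.5% of all genes were called. Over all pairs with the same number, the intraclass correlation, which is 0 for unrelated samples, was 0.321 for Pcna, 0.228 for Plk1 and 0.197 for Mki67. It was 0.124 for Top2a, 0.116 for Cdk1, 0.00959 for Ccna2 and -0.00368 for Ccnb1. The median over the 16131 genes was 0.228, so Ccnb1 and Ccna2 stood above only 8.44% and 9.89% of genes. With log2 reads as a covariate Pcna was no longer called (limma adjusted p = 0.0862), while Mki67 (0.0159) and Plk1 (0.034) were, as were 50.3% of genes. After quantile normalization Pcna was not called either (adjusted p = 0.106, 56.9% of genes called). After a spline of the title number was removed, Mki67 was no longer called (limma adjusted p = 0.0581), and 39.1% of genes were.

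The RefSeq gene table lists 3 pseudogenes named after Pcna, 1 after Cdk1 and 1 after Mki67. How reads that fit both a gene and its copy were counted is not given in the sources used here, so the levels of these genes are uncertain to that extent.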

How the data were processed

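RNA was extracted with Trizol from snap-frozen adipose tissue and sequenced as single-end reads of 75 bp on an Illumina HiSeq, per the labels' protocols. STAR, Picard, featureCounts and DESeq2 are named in the submitters' processing notes without versions or roles. The genome build and annotation are not given in the sources used here. The deposited table holds FPKM values for 18358 genes with no unit in its header. Their unit was worked out from the values: each equals whole reads over a whole gene length and over 1 factor per sample, and 100% of values came out whole within 0.001. The factors equalled median-of-ratios size factors times the geometric mean of the totals, so the FPKM values deposited by the authors were already scaled between samples. Each title matched 1 column, and 0 columns were left over. The symbols of the 7 members were given with the list of identifiers, not by the table.

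Values were analysed as log2(FPKM + 1), which understates the change of low genes, for genes above 1 FPKM in at least 20% of samples. Trends along the scaled rank of the title number, blocks and shared numbers were tested with limma 3.58.1 in R 4.3.3 over all 16131 genes. Correlations used 100000 permutations (numpy 2.4.6, scipy 1.17.1, pandas 2.3.3, Python 3.11.15), and figures matplotlib 3.10.9. Counting variance was computed from the recovered reads, as Poisson variance carried to the log scale. Alternatives were a pseudocount of 0.1, no filter or a filter at 80% of samples, quantile normalization, log2 reads as a covariate, voom on the recovered reads, 1 sample per title number, single blocks, blocks at gaps above 250, a title number spline with 5 degrees of freedom and removal of 5 principal components. The correction for counting variance, the joint removal of reads and spline, and the fits without samples under 3500000 reads, as well as block 2 with reads as a covariate, were chosen after seeing the data. The scripts were tested on simulated data. The members and lists were chosen with earlier results of these data known.

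The named genes were all 7 members, the closest gene to each, and the 2 genes with the highest and 2 with the lowest mean r with the members. Further cell cycle genes and markers of fat cells, immune cells and other cell types were planned and are not analysed here, because 0 identifiers matched the RefSeq gene table at hand (GRCr8). For the same reason the tissue label was not checked against its markers.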

Additional observations from a re-analysis of the deposited data

How the results depend on the processing

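Under the alternatives, the 15 correlations among the 6 genes other than Pcna kept their sign and passed the threshold in each setting that has a test. Correlations of Pcna depended on the setting. The r of Mki67 and Pcna, 0.142 over all samples, was -0.0981 in block 1 and -0.0347 after removal of 5 principal components, and that of Ccna2 and Pcna, 0.113, was -0.169 and -0.0582. The r of Plk1 and Pcna, -0.130, was 0.0568 in block 3, 0.0864 after quantile normalization, 0.0196 after removal of log2 reads, 0.0391 after removal of reads and spline and 0.0207 without the shallow samples. None of these 9 values passed (permutation test, adjusted p from 0.0801 to 0.692). The number of members called for the trend, 2, became 5 in block 2 and 0 in blocks 1 and 3. It became 1 with log2 reads as a covariate, after quantile normalization and without samples under 3500000 reads. In block 3 the trend estimates, carried over the full range of numbers, were -0.64 for Plk1 and 0.038 for Pcna, against 0.17 and -0.12 in all samples. Block 3 covers only part of that range, and the changes across the block itself were -0.22 for Plk1 and 0.013 for Pcna. Neither was called in block 3 (limma adjusted p = 0.132 and 0.848). The number called between blocks, 2, became 0 with log2 reads as a covariate and after quantile normalization, and 1 with voom on the recovered reads. By r, the number related to reads per sample, 5, became 2 in each block and after quantile normalization. Ccna2 then had r = -0.0230 in block 2 and -0.00421 after quantile normalization. By rho no member passed after quantile normalization (permutation test, adjusted p = 0.0656 for Plk1 and for Pcna, the lowest). In block 1 Plk1 did not pass by rho (adjusted permutation p = 0.162). The cause of these changes was not tested, and single blocks also hold fewer samples. A pseudocount of 0.1 widened the SD of log2 values to 0.41 for Mki67, 0.56 for Top2a, 0.50 for Cdk1, 0.54 for Ccnb1, 0.38 for Ccna2 and 0.51 for Plk1, by construction. No paired analysis was possible because the labels give 1 group only. Depth limits the low genes: Plk1, Ccnb1, Cdk1 and Ccna2 rest on medians of 17, 20, 27 and 36 reads.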
